A study of Mus musculus with 9 samples.

Results

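The 10 genes described here encode small leucine-rich proteoglycans, namely Kera, Lum, Dcn, Epyc, Fmod, Prelp, Ogn, Omd, Aspn and Bgn, and each matched 1 of the 24102 rows of the deposited expression table by its symbol. RNA was sequenced from green cells sorted out of mouse limbs at E12.5. In all sorted samples Cre recombinase is made from the Shox2 locus, so that cells of the Shox2 lineage and their descendants carry the green form of the Rosa(mTmG) membrane reporter. Mutant cells were Shox2(Cre/-);Rosa(mTmG), with the Cre allele and a mutant second allele, and control cells were Shox2(Cre/+);Rosa(mTmG), with the Cre allele and a normal one. The controls thus also lack 1 normal copy of Shox2. The labels list 4 mutant, 3 control and 2 whole-limb samples, while the table used here has 1 mutant and 1 control column for each of 3 litters. Litter 1 has 2 mutant samples, and the sources used here do not say which of them its column holds. The number of embryos per column is not given either, so the spread between columns may be partly technical. Errors below are SD over n = 3 columns per group.

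The gene family was selected on the mutant-control difference of Kera, which stood out in these same columns. The difference between mutants and controls is therefore given as a description for every member, without a test of it. Over the whole table, limma called 0 of 12314 tested rows at an adjusted p under 0.05, or 0% of rows, and 439 rows had an unadjusted p under 0.05, of which 272 were higher in mutants and 167 lower. With litter as a block limma also called 0 rows (0%), and an unadjusted p under 0.05 was reached by 658 rows that were higher in mutants and 775 that were lower. A row was tested at 1 FPKM or more in at least 3 columns, and log2 differences are of log2(FPKM + 1), mutant minus control, which understates changes of low genes.

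Small leucine-rich proteoglycans are secreted matrix proteins built around a curved stack of leucine-rich repeats. Most of them bind collagen fibrils and limit or guide their lateral growth, and several also bind growth factors such as TGF-beta. Decorin, biglycan and asporin form one class, of which decorin and biglycan carry chondroitin or dermatan sulfate chains. Keratocan, lumican, fibromodulin, PRELP and osteomodulin form another, in which keratan sulfate is the usual chain. Epiphycan of cartilage and osteoglycin (mimecan) belong to a further class. The genes lie in clusters in the mouse genome. Dcn, Lum, Kera and Epyc are consecutive protein-coding genes on chromosome 10 in the RefSeq gene order of GRCm38.p6. Prelp and Fmod are adjacent on chromosome 1, Aspn, Omd and Ogn are adjacent on chromosome 13, and Bgn stands alone on the X chromosome.

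Shox2, the targeted gene, was at 16.7, 18.3 and 96.9 FPKM in the mutants of litters 1, 2 and 3, against 217, 222 and 210 FPKM in their controls. The litter 3 mutant thus kept 46.2% of its control level, against 7.68% and 8.25% in litters 1 and 2. Of 7 tested limb mesenchyme markers, all above 1 FPKM in every column, 1 was higher and 1 lower in mutants in 3 of 3 litters. The shares over all tested rows were 15.7% and 22.3%. Prrx1, a homeobox gene, was at 121 to 246 FPKM in mutants and 106 to 184 FPKM in controls. Twist2, a bHLH factor gene, was at 64.5, 99.7 and 91.6 FPKM in mutants, each below its control at 89.5, 154 and 97.1 FPKM, and Msx1, another homeobox gene, at 5.13 to 7.27 and 2.83 to 7.70 FPKM.

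Transcripts of other cell types were present at unequal levels. Red cell markers (6 genes, 5 tested) summed to 231 to 723 FPKM in mutants and 332 to 596 FPKM in controls, most of it embryonic globin, with Hbb-y at 182 to 567 and 267 to 409 FPKM. The red cell genes with the largest differences were Hba-x, at 40.3 to 106 FPKM in mutants and 53.7 to 157 FPKM in controls, and Alas2, at 0.547 to 3.42 and 1.11 to 6.87 FPKM. Nerve and glia markers (11 genes, 9 tested) summed to 74.4 to 124 FPKM in mutants and 54.0 to 118 FPKM in controls, with the neurofilament genes Nefl at 7.83 to 24.3 and 3.999 to 9.37 FPKM and Nefm at 5.27 to 6.08 and 1.97 to 11.6 FPKM. Muscle markers (11 genes, 7 tested) summed to 49.8 to 81.0 FPKM in mutants and 29.0 to 83.2 FPKM in controls. Myog, a regulator of muscle differentiation, was at 5.88 to 8.37 FPKM in mutants and 3.54 to 7.35 FPKM in controls, the troponin gene Tnnc2 at 0.552 to 10.004 and 0.494 to 8.86 FPKM, and the progenitor gene Pax7 at 0.272 to 0.610 and 0.216 to 0.547 FPKM.

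Other marker lists were lower in sum. Surface ectoderm (9 genes, 6 tested) summed to 15.7 to 20.9 FPKM in mutants and 18.2 to 40.3 FPKM in controls. Its keratin gene Krt18 was at 5.41, 6.07 and 5.42 FPKM in mutants, all below the controls at 8.88, 9.69 and 8.10 FPKM, while Krt14 at 1.06 to 1.92 and 1.13 to 5.08 FPKM and the cadherin gene Cdh1 at 0.162 to 0.406 and 0.206 to 2.15 FPKM overlapped. Endothelium (9 genes, 4 tested) summed to 11.7 to 14.5 FPKM in mutants and 15.1 to 19.8 FPKM in controls. The VEGF receptor gene Kdr was at 0.947, 1.04 and 0.793 FPKM in mutants, all below the controls at 1.22, 2.33 and 1.32 FPKM, while Pecam1 at 1.06 to 1.26 and 0.648 to 3.81 FPKM and Cdh5 at 0.498 to 0.659 and 0.369 to 3.17 FPKM overlapped. Leukocyte markers (8 genes, 3 tested) summed to 10.9 to 22.1 FPKM in mutants and 12.6 to 16.1 FPKM in controls, with Laptm5 at 0.797 to 3.64 and 1.58 to 3.83 FPKM, Cd68 at 1.97 to 3.18 and 1.56 to 4.71 FPKM, and the defining gene Ptprc at 0.0292 to 0.337 and 0 to 0.0826 FPKM. Krt14, Cdh1, Pecam1, Kdr and Cdh5 were each highest in the litter 2 control. In bulk columns such as these, fewer cells of a type and less RNA per cell cannot be told apart. The files give no read totals, so the depth of the columns is unknown.

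Lum was the most abundant family member in either genotype. Lumican, which regulates fibril spacing in many connective tissues, was at 229 ± 39.0 FPKM in mutants and 270 ± 41.6 FPKM in controls. In the mutants Kera came next at 96.2 ± 15.5 FPKM, followed by Dcn at 94.2 ± 5.77, Ogn at 63.9 ± 2.31 and Bgn at 51.3 ± 29.4 FPKM. In the controls Dcn at 95.3 ± 2.39 FPKM, Ogn at 70.5 ± 8.38 FPKM and Bgn at 60.4 ± 33.9 FPKM all ranked above Kera at 45.4 ± 4.98 FPKM. Kera thus stood in place 2 of 10 in mutants and place 5 of 10 in controls. Its columns overlapped with those of Dcn in mutants, where it was the higher of the pair in 2 of 3 litters, and with those of Bgn in controls.

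The lower places were held by Fmod at 12.9 ± 5.51 FPKM, Epyc at 10.1 ± 1.55 FPKM and Aspn at 10.1 ± 1.58 FPKM in mutants. In controls they were at 17.3 ± 5.69, 14.98 ± 4.16 and 16.4 ± 1.93 FPKM. Within each genotype, those of the 3 genes that were next to each other in the order overlapped in their columns. Prelp followed at 4.22 ± 1.56 FPKM in mutants and 5.10 ± 2.41 FPKM in controls, and Omd was last, below 1 FPKM in every column. The other 9 members, each above 2 FPKM in every column, passed the filter on low values, so none of them entered through 1 genotype alone.

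**Figure D1:**
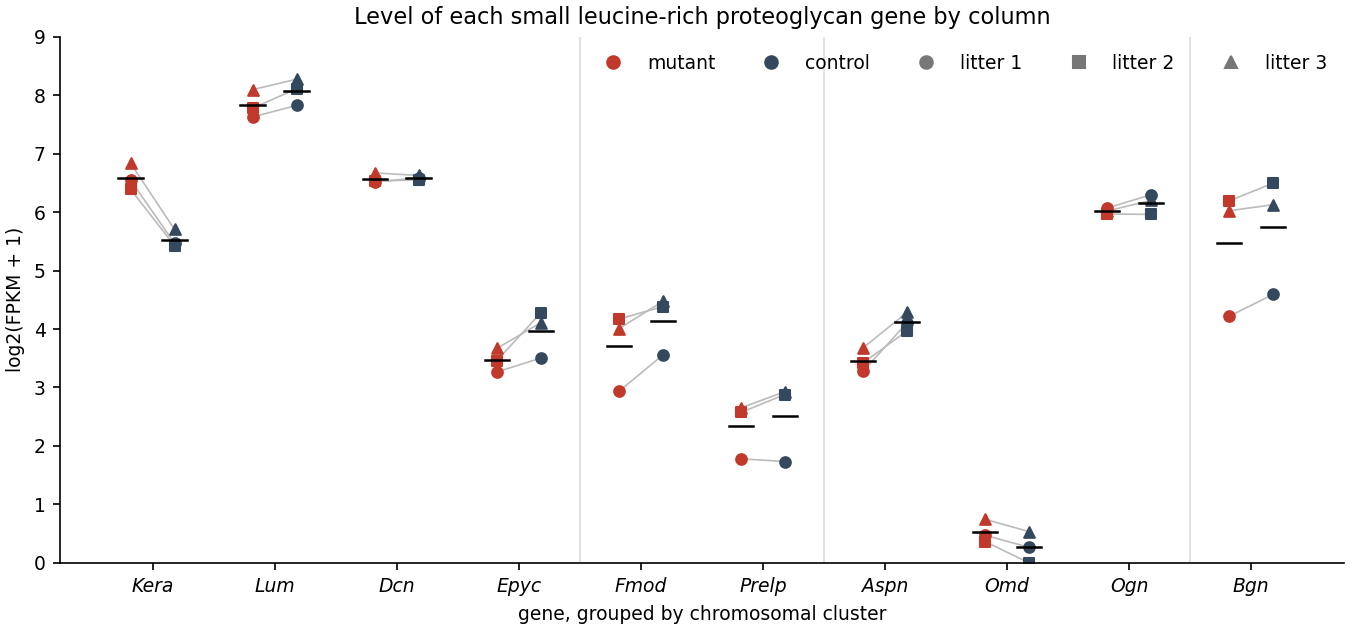
Level of the 10 genes on a log2(FPKM + 1) axis, with mutant columns left of control columns, a marker shape per litter, grey lines joining the columns of a litter and black bars for the group means (n = 3 columns each). Kera is the gene whose mutant columns all lie above its control columns, Aspn the one whose mutant columns all lie below, and the litter 1 columns of Bgn, Fmod and Prelp sit below those of the other litters in either genotype.

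Kera encodes keratocan, a keratan sulfate proteoglycan best known from the corneal stroma and also found in tendon. It was at 92.6, 82.9 and 113 FPKM in the mutants of litters 1, 2 and 3, against 43.1, 41.9 and 51.1 FPKM in their controls. The lowest mutant column lay well above the highest control column, and the groups did not overlap. Within litters the mutant level was 2.15, 1.98 and 2.22 times that of the control. The log2 difference was 1.06 (SE 0.17, or 0.11 with litter as a block), place 66 from the top among 12314 rows. The litter 3 mutant, in which Shox2 was at 46.2% of its control, had the highest of the 3 ratios.

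To place this difference among other genes, rows were counted that reached it in each litter. Of all tested rows, 15 had a log2 difference of at least 0.97, the smallest of the 3 Kera values, in every litter. Among the 2001 rows whose mean reached 41.9 FPKM, the lowest control value of Kera, there were 2 such rows. They were Kera itself and Slc2a1, which encodes a glucose transporter and was at 85.9, 173 and 62.7 FPKM in mutants, against 31.8, 42.4 and 31.3 FPKM in controls. Since Kera was chosen for this difference, these counts describe it and support nothing.

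The neighbours of Kera in its cluster were not higher in mutants. Lum, the next gene on one side, was at 197, 218 and 273 FPKM in the mutants of litters 1, 2 and 3, against 226, 275 and 308 FPKM in the controls. It was lower in 3 of 3 litters, at 79.3% to 88.3% of its control, while the groups overlapped. Its log2 difference was -0.24 (SE 0.20, or 0.12 with litter as a block).

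Epyc, the next gene on the other side, encodes epiphycan, a proteoglycan of growth plate cartilage. It was at 8.62, 10.003 and 11.7 FPKM in mutants and at 10.3, 18.4 and 16.2 FPKM in controls. Each mutant was below its own control, by the largest margin in litter 2 at 54.5%, but the litter 3 mutant was above the litter 1 control. The log2 difference was -0.50 (SE 0.24), or -0.34 without the litter 2 pair. In that litter the median log2 difference of other cell type markers was -0.80 for surface ectoderm, -0.76 for muscle, -0.73 for red cells, -0.39 for endothelium, -0.10 for nerve and glia and 0.34 for leukocytes, and their part in the Epyc value was not tested.

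Dcn, which encodes decorin, the archetype of the family and a binder of TGF-beta, had the smallest log2 difference of the 9 tested members. It was at 90.7, 91.1 and 101 FPKM in mutants and 95.0, 93.1 and 97.8 FPKM in controls, or 95.4%, 97.9% and 103% of control in litters 1, 2 and 3. The groups overlapped, and the log2 difference was -0.02 (SE 0.13), a sign that turned to 0.06 with quantile normalisation and 0.02 with median scaling. Set against Kera, the log2 difference of Kera exceeded that of Lum by 1.28, 1.30 and 1.31 in litters 1, 2 and 3, that of Dcn by 1.15, 1.00 and 1.09, and that of Epyc by 1.32, 1.78 and 1.57. The gap to Lum was thus nearly the same in every litter. No test was made of these gaps, because the choice of Kera fixes their direction.

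Genes beyond the cluster were read in the same way. Of the 10 nearest protein-coding genes, 5 on each side, 8 were tested, and their log2 differences ran from -0.44 to 0.05 with a median of -0.11. Groups did not overlap for 2 of them, both lower in mutants and both beyond Epyc. They were Dusp6, a phosphatase that limits FGF-ERK signalling, at 52.2, 38.1 and 49.7 FPKM in mutants and 83.0, 53.7 and 55.7 FPKM in controls, and Galnt4, an enzyme that starts mucin-type sugar chains, at 6.78, 5.32 and 6.32 FPKM in mutants and 8.03, 7.61 and 7.07 FPKM in controls. Over the whole table, mutant columns all lay below control columns in 5.03% of rows and all above in 4.22%. Of the 12 tested genes in this stretch, only Kera, which was chosen for its difference, was higher in mutants in 3 of 3 litters. Over all tested rows 15.7% were, so that its absence in the few other genes says little.

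**Figure D2:**
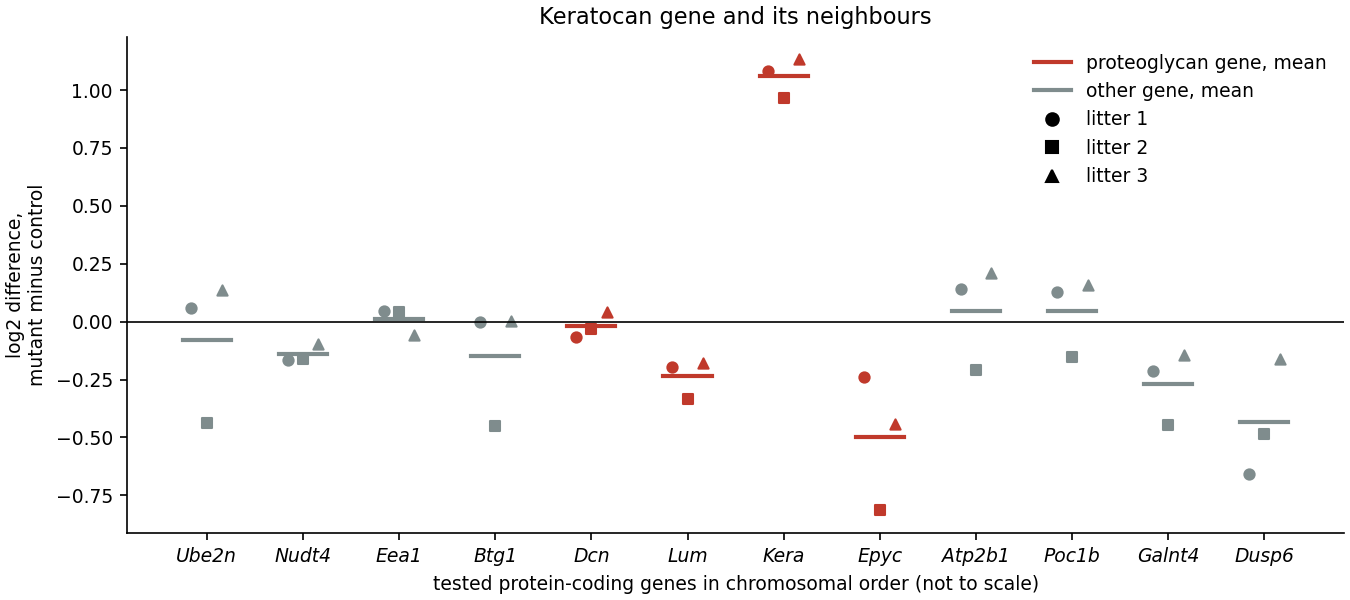
Log2 difference, mutant minus control, of the tested genes of the Kera cluster and its flanks, in chromosomal order but not to distance, with 1 marker per litter and a bar for the mean of 3 litters. Kera lies at 0.97 to 1.13, while Lum and Epyc next to it lie below 0 in every litter.

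The region before the start sites is shown for 3 genes, since Shox2 is a homeodomain factor and such factors commonly bind DNA with a TAAT core. RefSeq windows of GRCm38.p6 were at hand for 8 of the 10 members, without Lum and Dcn, and the 250 bases before each start were searched for TAAT on both strands (read as ATTA on the other strand). These letters occur by themselves in 54.9% of all 32851 such windows. The longer form TAATTA, in 4.84% of windows, was found in none of the windows of the 8 members. In the first sequence, 30 bases around the single match of Kera, at bases 94 to 91 before the start, are printed, because the GENCODE M21 annotation has an exon over all 250 bases of its window. For Epyc and Aspn, the members with the largest negative differences, all 250 bases are given. Matches to TAAT are in capitals and all 3 run 5′ to 3′ on the plus strand, at chr10:97607098-97607127 for Kera, chr10:97643818-97644067 for the first of the 2 Epyc starts and chr13:49544193-49544442 for Aspn.
Kera: attgggtcaattcATTActgggagcagcag
Epyc: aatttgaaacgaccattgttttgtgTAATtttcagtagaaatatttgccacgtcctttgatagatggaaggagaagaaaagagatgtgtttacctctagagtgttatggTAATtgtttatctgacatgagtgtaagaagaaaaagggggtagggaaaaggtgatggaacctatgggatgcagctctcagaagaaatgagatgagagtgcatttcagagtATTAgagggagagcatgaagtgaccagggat
Aspn: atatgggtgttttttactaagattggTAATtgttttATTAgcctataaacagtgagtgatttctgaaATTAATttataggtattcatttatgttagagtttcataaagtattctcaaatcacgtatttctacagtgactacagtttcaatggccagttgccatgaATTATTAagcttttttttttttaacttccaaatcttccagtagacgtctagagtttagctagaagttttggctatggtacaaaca

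The Kera window thus held 1 match, the first Epyc window 3 and the Aspn window 6, with overlapping matches counted apart. The window of the second Epyc start, not printed, held 5. At least 3 matches occurred in 17.3% of all windows and at least 6 in 3.26%. G and C made up 42.4% of the Kera window, 39.2% of the first and 31.2% of the second Epyc window, and a slightly lower share of the Aspn window. Fmod and Ogn had 1 match each, Prelp and Omd 2 each and Bgn 0. A match describes letters and does not show a binding site.

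Among the other members of the keratan sulfate class, Fmod encodes fibromodulin, a fibril regulator of tendon and cartilage. It was at 6.64, 17.002 and 15.1 FPKM in the mutants of litters 1, 2 and 3, against 10.7, 19.9 and 21.2 FPKM in controls. The mutant was lower in 3 of 3 litters, at 61.8%, 85.5% and 71.1% of control, but the spread between litters was wider than this gap and the groups overlapped. The log2 difference was -0.43, with SE 0.40 across all columns and 0.12 with litter as a block.

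Prelp, its neighbour, encodes a basic proteoglycan that anchors basement membranes to connective tissue. It was at 2.43, 4.95 and 5.28 FPKM in mutants and 2.32, 6.36 and 6.62 FPKM in controls, slightly higher in the litter 1 mutant and lower in the mutants of litters 2 and 3. Its log2 difference was -0.18 (SE 0.39, or 0.13 with litter as a block). It changed sign when the litters were unbalanced, to 0.10 without mutant replicate 1, 0.03 without control replicate 3 and 0.004 without control replicate 2. Without control replicate 1 it was -0.57. Leaving out a whole litter pair kept it negative, at -0.29, -0.12 and -0.13 for litters 1, 2 and 3. Omd, which encodes osteomodulin of bone and dentin, was at 0.386, 0.286 and 0.676 FPKM in mutants and listed at 0.202, 0 and 0.448 FPKM in controls. It was higher in the mutant in 3 of 3 litters at levels too low to be tested, and the groups overlapped.

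In the class of decorin, Aspn stood apart from its control. Aspn encodes asporin, a proteoglycan with a run of aspartate residues that binds collagen and calcium and is found around cartilage and in tendon and ligament. It was at 8.69, 9.71 and 11.8 FPKM in mutants, against 16.2, 14.6 and 18.5 FPKM in controls, so that all mutant columns lay below all control columns. The ratio to control was 0.54, 0.66 and 0.64 in litters 1, 2 and 3. The log2 difference was -0.66 (SE 0.16, or 0.11 with litter as a block), place 105 from the bottom among 12314 rows. Ogn, on the same chromosome 13 stretch and encoding osteoglycin of bone and vessels, was at 66.2, 61.6 and 63.9 FPKM in mutants and 77.6, 61.3 and 72.6 FPKM in controls. Its groups overlapped and its log2 difference was -0.13 (SE 0.14).

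Bgn encodes biglycan, the X-linked relative of decorin in bone and skeletal tissue. It was at 17.6, 72.2 and 64.1 FPKM in mutants and 23.1, 89.2 and 68.9 FPKM in controls. Each mutant was below its own control, at 76.1%, 80.9% and 93.0%, and the groups overlapped widely because of litter 1. The log2 difference was -0.26 (SE 0.68, or 0.11 with litter as a block). It changed sign when the litters were unbalanced, to 0.37 without mutant replicate 1 and to 0.12 without control replicate 2. Xist, the transcript that silences an X chromosome in females, was at 36.8, 178 and 68.4 FPKM in mutants and 12.1, 34.6 and 73.0 FPKM in controls, higher in the mutants of litters 1 and 2. Its part in the level of Bgn was not tested.

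Counted together, 5 of 9 tested members were lower in mutants in 3 of 3 litters (Lum, Epyc, Fmod, Aspn and Bgn) and 1, Kera, was higher. Over all tested rows 22.3% were lower and 15.7% higher in every litter. The columns of the groups did not overlap for 1 member higher, Kera, and 1 lower, Aspn, against 4.22% of all tested rows higher and 5.03% lower. The median log2 difference of the 8 tested members other than Kera was -0.25, against -0.04 over all tested rows. The signs of Kera, Lum, Epyc, Fmod, Prelp, Ogn, Aspn and Bgn held under quantile normalisation and median scaling, while that of Dcn changed under both.

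**Figure D3:**
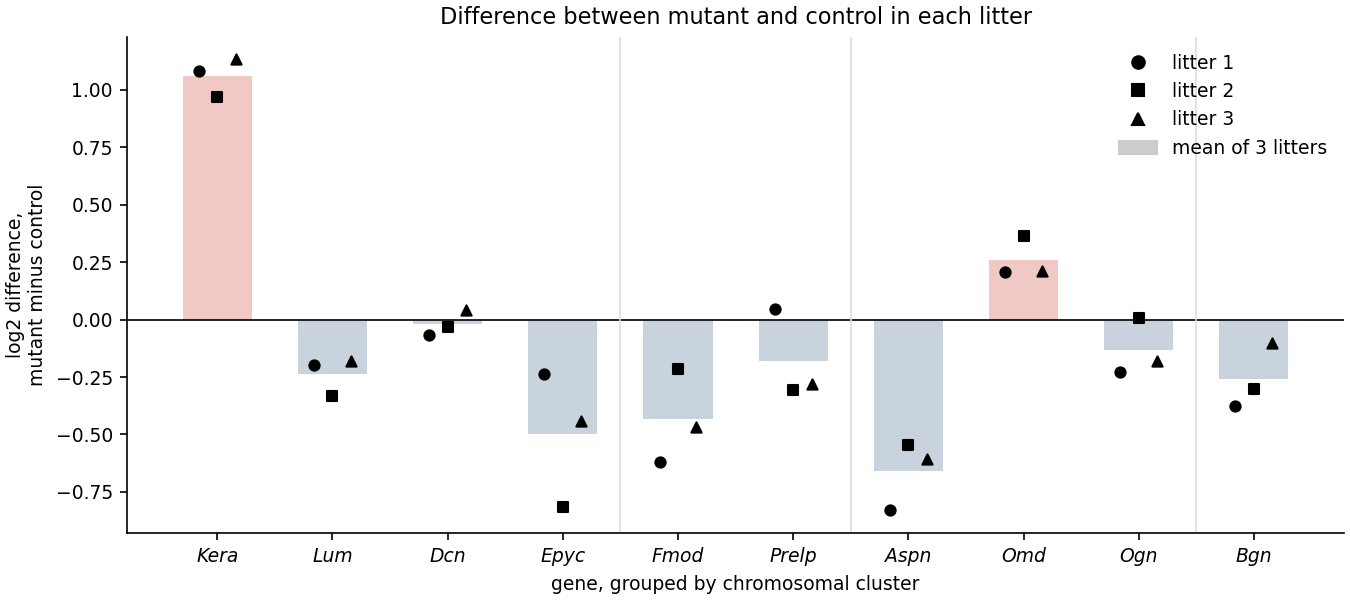
Log2 difference, mutant minus control, for each gene, with 1 marker per litter and a bar for the mean of 3 litters, on the log2(FPKM + 1) scale. The bar of Kera reaches 1.06 and that of Omd, a gene below 1 FPKM in every column, is also above 0, while the other bars lie between -0.66 and -0.02.

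Because FPKM values of different litters may rest on separate scalings, the make-up of the family within each column was also computed. Kera made up 18.9%, 14.6% and 17.2% of the summed FPKM of the 10 genes in the mutants of litters 1, 2 and 3, against 8.55%, 6.76% and 7.72% in the controls. The sum itself was 491, 568 and 659 FPKM in mutants and 505, 620 and 662 FPKM in controls, and without Kera it was 398, 485 and 546 FPKM against 461, 578 and 611 FPKM. Each mutant thus had more Kera and a lower sum of the rest than its control. Lum made up 38.5% to 41.3% in mutants and 44.4% to 46.6% in controls, a share that a larger Kera lowers by itself.

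Ratios between neighbouring genes do not depend on the scaling of a column. There were 0.470, 0.380 and 0.416 FPKM of Kera for each FPKM of Lum in mutants, against 0.191, 0.152 and 0.166 in controls. Lum per Dcn was 2.17, 2.40 and 2.70 in mutants and 2.38, 2.96 and 3.15 in controls, lower in the mutant in 3 of 3 litters. Aspn per Ogn was 0.131, 0.158 and 0.185 in mutants and 0.209, 0.239 and 0.255 in controls, without overlap. Of these 3 ratios, Lum per Dcn was the one whose groups overlapped. Epyc per Lum overlapped as well, at 0.0430 to 0.0458 in mutants and 0.0458 to 0.0666 in controls. So did Fmod per Prelp, at 2.73 to 3.43 in mutants and 3.13 to 4.62 in controls.

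**Figure D4:**
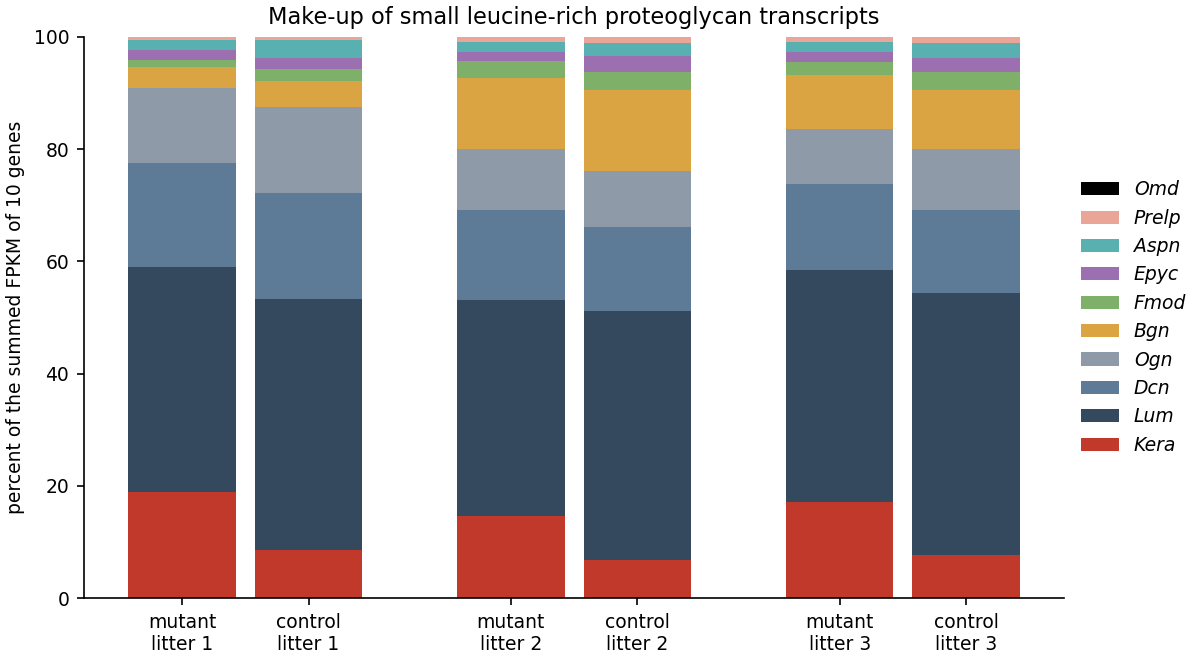
Share of each gene in the summed FPKM of the 10 genes, in percent, for the mutant and control column of each litter. The Kera segment at the base covers 14.6% to 18.9% in mutants and 6.76% to 8.55% in controls, and the Bgn segment is narrower in litter 1 than in litters 2 and 3.

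Litters differed in the family in another way, noticed after the values were seen. In litter 1, Bgn was at 25.9% of the mean of litters 2 and 3 in mutants and 29.3% in controls, Fmod at 41.4% and 52.3%, and Prelp at 47.6% and 35.8%. Kera, Dcn and Ogn were at 92.7% to 116% in either genotype. Over all tested rows the median log2 ratio of litter 1 to the mean of the others was -0.14 in mutants and -0.09 in controls. The litter gap of Bgn also stood within columns, with 0.194 FPKM of Bgn per FPKM of Dcn in the litter 1 mutant and 0.243 in its control, against 0.635 to 0.958 in the other columns. Col1a1, the main collagen chain of bone and tendon, had the same order, at 218, 542 and 500 FPKM in mutants and 313, 820 and 561 FPKM in controls. Col6a2 was also low in litter 1, at 66.5, 103 and 99.1 FPKM in the controls of litters 1, 2 and 3. Not all collagens had a low litter 1 in controls. Col1a2 was at 717, 735 and 724 FPKM in them, and Col3a1 at 1438, 1040 and 1106 FPKM. In the mutants Col3a1 was at 952, 1018 and 960 FPKM, while Col1a2 was low in litter 1, at 521, 706 and 666 FPKM. With 1 column per genotype and litter, no test of this litter gap was made.

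Relatives of the family outside the 10 members, a list of 8, gave 5 tested genes. In mutants 3 of them were lower in 3 of 3 litters and 0 higher, with a median log2 difference of -0.46. The background for this and the later lists is 22.3% of all tested rows lower and 15.7% higher in 3 of 3 litters. Podnl1, a podocan-like protein gene, was at 0.348, 0.420 and 0.516 FPKM in mutants and 1.41, 2.41 and 1.79 FPKM in controls, a log2 difference of -0.99 (SE 0.18). It passed the filter through the controls alone. Chad, which encodes the cartilage matrix protein chondroadherin, was at 1.03, 3.03 and 3.10 FPKM in mutants and 1.67, 8.501 and 4.78 FPKM in controls (log2 difference -0.71, SE 0.51).

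The collagens that these proteoglycans bind did not move one way. Of 14 tested fibril-forming and fibril-associated chains, 1 was higher and 4 lower in mutants in 3 of 3 litters, and the median log2 difference was -0.05. The single chain that was higher, Col12a1, which links fibrils in tendon and the perichondrium, was at 79.2, 74.7 and 66.9 FPKM in mutants and 60.3, 35.5 and 46.7 FPKM in controls, without overlap. Col1a1 was lower in each mutant than in its control (log2 difference -0.43, SE 0.48), with overlap between the groups. Groups did not overlap in 5.03% of all tested rows on the lower side and 4.22% on the higher. Among the lower chains, 2 had no overlap. Col1a2 was at 521, 706 and 666 FPKM in mutants and 717, 735 and 724 FPKM in controls. Col3a1 was at 952, 1018 and 960 FPKM in mutants and 1438, 1040 and 1106 FPKM in controls.

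Enzymes that build the sugar chains were mixed. Of 7 tested genes of keratan sulfate synthesis 0 were higher and 1 lower in 3 of 3 litters, with a median of -0.09. The one that was lower was Chst5, a sulfotransferase that acts on such chains, at 1.57, 1.71 and 1.99 FPKM in mutants and 2.25, 2.63 and 2.11 FPKM in controls. The other gene named by the rule, B3gnt2, which extends the chain, had 2.26 ± 0.511 FPKM in mutants and 1.82 ± 0.818 FPKM in controls. Of 22 tested genes of chondroitin and dermatan sulfate synthesis 6 were higher and 4 lower, with a median of 0.05. Chpf, a chain-polymerising factor, was at 19.6 ± 3.12 FPKM in mutants and 26.6 ± 2.74 FPKM in controls, without overlap, and Chst11, a sulfotransferase needed for cartilage, at 13.7 ± 3.10 and 10.3 ± 2.06 FPKM. Among 10 tested proteases and their enhancers 0 were higher and 4 lower, with a median of -0.11. Bmp1, which cleaves the propeptides of collagen and of several of these proteoglycans, was at 87.3 ± 21.8 FPKM in mutants and 107 ± 18.1 FPKM in controls, and the procollagen protease gene Adamts2 at 6.90 ± 1.42 and 8.12 ± 1.14 FPKM.

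Skeletal marker lists were set beside these results, since several members are also made by tendon and cartilage cells. Of 9 tested tendon markers outside the family, 6 were lower and 1 higher in mutants in 3 of 3 litters. The shares over all tested rows were 22.3% and 15.7%. These tendon markers had a median of -0.49 and a summed level of 169 to 298 FPKM in mutants and 286 to 391 FPKM in controls. The one that was higher was Mkx, a homeobox regulator of tendon, at 15.6, 19.5 and 14.6 FPKM in mutants and 7.92, 11.7 and 8.09 FPKM in controls, without overlap. Thbs4, a matrix protein of tendon, was at 2.51, 10.7 and 10.2 FPKM in mutants and 3.94, 18.7 and 20.5 FPKM in controls. Scx, the tendon progenitor factor scleraxis, chosen after its values were seen, was at 45.8, 64.4 and 62.4 FPKM in mutants and 84.5, 79.3 and 77.2 FPKM in controls, also without overlap. Kera and Mkx were thus higher in mutants while most tendon markers, Aspn and Fmod were lower. The part of these markers in the values of the members was not tested.

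Cartilage and joint lists showed no common direction. Of 11 tested cartilage markers 3 were higher and 4 lower in 3 of 3 litters, with a median of 0.08 and a summed level of 219 to 385 FPKM in mutants and 265 to 405 FPKM in controls. Those with the largest differences were Snorc, a membrane proteoglycan of chondrocytes, at 1.90 ± 1.17 FPKM in mutants and 5.82 ± 3.11 FPKM in controls, and Comp, a matrix protein of cartilage and tendon, at 1.72 ± 0.562 and 3.96 ± 1.73 FPKM. Both were lower in mutants with overlap between the groups. Without overlap, 2 cartilage markers were higher and 0 lower. The 2 were Sox5 and Sox6, named after their values were seen. Sox5 was at 10.1, 12.7 and 10.2 FPKM in mutants and 5.19, 6.33 and 6.86 FPKM in controls. Sox6 was at 11.3, 9.60 and 9.73 FPKM in mutants and 8.10, 6.98 and 8.09 FPKM in controls. Of 8 joint markers 3 were higher and 2 lower, with a median of 0.09 and a summed level of 403 to 597 FPKM in mutants and 402 to 575 FPKM in controls. Gdf5, which encodes a growth factor needed where joints form, was at 46.7 ± 2.47 FPKM in mutants and 21.3 ± 2.68 FPKM in controls, and Enpp2, which makes the lipid signal lysophosphatidic acid, at 35.2 ± 6.11 and 16.1 ± 1.44 FPKM.

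The rows most like Kera were sought by the Euclidean distance between log2 values of the 6 columns, each row centred on its mean, among the 9430 tested rows that averaged at least 5 FPKM. The nearest were Pdk1, a kinase that restrains pyruvate oxidation, at a distance of 0.42, Hpgd, a prostaglandin-degrading enzyme, at 0.47, Cdh10, a cadherin, at 0.48, Gdf5 at 0.49 and Dach1, a transcriptional cofactor of limb and eye development, at 0.50. Each had mutant columns above its control columns, at 32.5 to 37.9 FPKM against 17.5 to 21.3 FPKM for Pdk1. No other member of the family was among them. The distance uses the same columns in which Kera was chosen for its difference, so both observations follow largely from that choice.

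The authors also deposited a list of 1352 distinct symbols, named as genes under direct repression by Shox2. It holds 0 of the 10 members, Kera included, and 5.28% of all distinct names in the table and 7.71% of those tested, so that a count of 0 among 10 says little. The sources used here do not say how it was made. It holds 4 of the 15 collagens, Col1a2, Col3a1, Col5a2 and Col12a1, and 2 of the 9 tendon markers, Mkx and Thbs4. Of these, Col12a1 and Mkx were higher in mutants in 3 of 3 litters. Col1a2, Col3a1 and Thbs4 were lower in 3 of 3, and Col5a2 was mixed.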

How the data were processed

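Per the submitters' processing notes, the authors used TopHat and Cuffdiff on mm9. The sources used here give no annotation and no filter. The deposited values are decimals that, per the file headers, were scaled by Cuffdiff's geometric method in each litter, and they were read as FPKM, the unit Cuffdiff reports, a word the header lacks. The other deposited file lists gene symbols with no score or other value. From the FPKM, limma 3.58.1 (R 4.3.3, intensity trend) compared 3 mutant with 3 control columns on log2(FPKM + 1) over all 12314 rows with at least 1 FPKM in 3 columns, with Benjamini-Hochberg adjustment. The fit was tested on simulated data with columns drawn independently, without litters, and the pass rule covered only the mean size of the estimates. Columns are paired by litter, which the labels state. Deviations from group means correlated at 0.87, 0.57 and 0.77 across genes within litters 1, 2 and 3, against -0.71 to 0.17 between litters. Deviations from a mean of 3 columns sum to 0, which by itself lowers the values between litters. Alternatives changed the pseudocount (0.1 or 0.5), the filter, the scaling, the block and the columns used. The members, gene lists and tests were chosen with earlier results of these data known. The rule for named genes took all members, Shox2, the 2 tested genes of each gene list with the largest absolute difference (also applied to the marker lists), the flanking genes as counts, and the 5 rows nearest to Kera. Dusp6, Galnt4, Slc2a1, Xist, Optc, Ecm2, Prrx1, Hbb-y, Pax7, Cdh1, Cdh5, Ptprc, Col1a2, Col3a1, Col5a2 and Col6a2 were named after their values were seen. Whole limbs were not analysed here. Names of flanking genes and promoter sequences come from RefSeq (GRCm38.p6), and no mm9 coordinates are given.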

Additional observations from a re-analysis of the deposited data

How the results depend on the processing

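Over 19 alternatives the log2 difference of Kera ran from 0.94 to 1.16 and stayed above 0, a sign that its selection largely fixed. A change of the filter or use of the block cannot by itself move an estimate, so the 19 are not separate checks. Lum, Epyc, Fmod, Ogn and Aspn kept their negative sign in all 19, Aspn between -0.77 and -0.57 and Fmod between -0.72 and -0.05. Dcn kept its sign in 12 of 19, Prelp in 15 of 18 and Bgn in 17 of 19. With litter as a replicate block limma called 0 rows, as without it. Leaving out 1 column at a time gave 0 to 1 called rows, namely Snora16a without control replicate 3 and Shox2 without mutant replicate 3. With the block and without the litter 2 pair, 534 of 12314 rows were called, among them Kera, Fmod and Aspn. Without the litter 3 pair 36 of 12314 were called, with 0 members among them, and without the litter 1 pair 0. These fits of 2 pairs leave 1 residual degree of freedom, and Kera was chosen for its difference, so its call supports nothing. Rows with all mutant columns above all control columns numbered 520, or 881 with no filter on low values and 329 at a mean of 5 FPKM or more. Omd was below the filter and has no such values. Depth is unknown, so no counting error can be given for low genes.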

Other observations

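Genes that flank the other clusters were counted as for Kera. Around Prelp and Fmod on chromosome 1, 5 of 10 flanking genes were tested, with 2 higher and 0 lower in mutants in 3 of 3 litters and log2 differences from -0.29 to 0.42. Around Aspn, Omd and Ogn on chromosome 13, 5 of 10 were tested, with 0 higher and 1 lower, from -0.23 to 0.29. Around Bgn, 6 of 10 were tested, with 0 higher and 2 lower, from -0.25 to 0.10. The groups did not overlap in 0 of these 16 genes, against 4.22% of all tested rows higher and 5.03% lower, so this count says little. For direction, 15.7% of all tested rows were higher and 22.3% lower in 3 of 3 litters. Within the chromosome 1 and 13 stretches lie relatives of the family that were too low to be tested. Optc, which encodes opticin of the eye, was at 0.448, 0.908 and 0.822 FPKM in mutants and 0.677, 0.541 and 0.655 FPKM in controls, and Ecm2, a matrix protein gene, at 0.445, 0.448 and 0.644 FPKM in mutants and 0.756, 0.147 and 0.907 FPKM in controls.

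Tsku, which encodes the secreted repeat protein tsukushi, a binder of BMP and Wnt signals, was named after its values were seen. It was at 17.2, 13.2 and 16.5 FPKM in mutants and 26.1, 20.8 and 18.8 FPKM in controls, without overlap, a log2 difference of -0.46 (SE 0.18).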
